A study of Mus musculus with 8 samples.

Results

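The cell cycle and mitosis genes described here are 34 genes of the mouse proliferation programme, chosen from a list by gene symbol, and all 34 were found among the 24924 genes analysed. They were measured by RNA-seq in 8 libraries of cells sorted by surface markers from the brains of aged C57BL/6 mice, 20 to 22 months old. The 4 groups held 2 libraries each: brain T cells of mice given 2 µg of interleukin-5 (IL-5) a day for 2 days, brain T cells of mice given PBS, microglia of IL-5 mice and microglia of PBS mice. No genetic alteration is given for any group, and the labels state neither whether the libraries of a group came from separate mice nor whether animals were pooled, so p-values measure only the spread between these libraries, which may be technical. The comparisons asked how the genes differ between brain T cells and microglia and whether they differ with IL-5, a cytokine best known for its action on eosinophils and B cells.

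A dividing cell switches on its genes in waves. In late G1 and S phase, E2F factors drive cyclin E, the Mcm2 to Mcm7 helicase, which is loaded on replication origins by Cdc6 and started with Cdc45, and the enzymes that copy DNA and make nucleotides. In G2 and mitosis, the DREAM, MYB and Foxm1 regulators act through a promoter element called CHR. The genes of this wave are cyclins A and B with Cdk1, the Aurora and Polo kinases, the spindle checkpoint, and the motors and chromosome proteins of division. Most T cells and adult microglia rest outside the cycle, T cells multiply after antigen, and microglia renew slowly.

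Promoters of 5 members are shown because they carry the letters of these waves in genes on which the results below turn. Sequences are the 150 bases before the annotated start, read 5′ to 3′ on the gene's own strand from RefSeq on GRCm38.p6, all on the minus strand: Mcm6 at chr1:128359706-128359855, Top2a at chr11:99024190-99024339, Cdc20 at chr4:118437344-118437493, Mki67 at chr7:135716380-135716529 and Cdk1 at chr10:69352913-69353062. Capitals mark the CHR letters TTTGAA or TTCGAA and the E2F letters TTTCCCGC, TTTCGCGC, TTTGCCGC or TTTGGCGC, searched on both strands, so that TTCAAA is a CHR match on the other strand. In Mcm6, a pair of E2F matches on opposite strands overlap.
Mcm6: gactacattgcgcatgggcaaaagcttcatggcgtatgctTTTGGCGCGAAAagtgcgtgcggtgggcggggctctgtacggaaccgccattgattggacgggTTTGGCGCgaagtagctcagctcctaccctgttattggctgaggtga
Top2a: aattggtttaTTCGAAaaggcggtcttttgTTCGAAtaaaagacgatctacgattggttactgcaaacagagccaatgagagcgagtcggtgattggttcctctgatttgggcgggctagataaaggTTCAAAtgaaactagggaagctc
Cdc20: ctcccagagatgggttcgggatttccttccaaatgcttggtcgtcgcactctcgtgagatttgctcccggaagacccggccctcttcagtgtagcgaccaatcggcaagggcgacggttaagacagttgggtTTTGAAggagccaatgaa
Mki67: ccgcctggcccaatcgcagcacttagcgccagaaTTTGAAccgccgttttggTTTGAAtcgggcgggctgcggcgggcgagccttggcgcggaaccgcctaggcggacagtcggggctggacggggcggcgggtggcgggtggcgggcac
Cdk1: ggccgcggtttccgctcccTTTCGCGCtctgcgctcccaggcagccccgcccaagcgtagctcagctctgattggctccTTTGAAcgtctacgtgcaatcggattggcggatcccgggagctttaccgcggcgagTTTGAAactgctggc

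RefSeq promoters were matched for 29 members, giving 30 promoters of 300 bases, since Mcm7 had more than 1; Mcm4, Foxm1, Ccne2, Aurkb and Ccna2 were not matched. The CHR letters were in 12 of the 16 promoters of G2 and mitosis members (75%) and in 3 of the 14 of G1 and S members (21.4%), and in 19.2% of all 32851 promoters in the table. The E2F letters were in 1 of the 16 promoters of G2 and mitosis members (6.25%) and in 5 of the 14 of G1 and S members (35.7%), and in 2.27% of all promoters. The letters CCAAT were in 24 of the 30 member promoters (80%) and in 37.4% of all promoters. They were in 14 of the 16 promoters of G2 and mitosis members (87.5%) and in 10 of the 14 of G1 and S members (71.4%). These matches describe letters, not occupied sites.

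The libraries held 23536908 to 30423828 gene counts each, and levels are given as CPM, a gene's counts scaled to a library of 1000000 gene counts. The sort was visible in its markers: all 9 T cell markers in the table passed the test as higher in the T cell libraries and all 10 microglial markers as lower. The microglia libraries also held mature neutrophil genes at 9914 to 14616 summed CPM over 6 genes, against 0 to 20.7 in the T cell libraries. Genes listed for neutrophil progenitors were at 2189 to 5181 summed CPM over 8 genes, against 0.379 to 123 in the T cell libraries. No gene of either list was at 0 in any microglia library. The progenitor sum was led in microglia by Ngp (797 to 3792 CPM) and Camp (846 to 1268 CPM). Another gene of that list, Mpo, was at 9.09 to 43.6 CPM in microglia and at 0, 69.4, 0 and 87.6 CPM in the T cell libraries, IL-5 first. Choroid plexus genes, Ttr above all, summed to 46117 to 93536 CPM in the T cell libraries and 33931 to 59978 CPM in the microglia libraries. What part cells of these other types have in the levels below was not tested. In bulk RNA, fewer dividing cells and less RNA per cell cannot be told apart.

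Summed over the 34 genes, levels were higher in brain T cells than in microglia. The 34 genes together made up 798 and 1299 CPM in the IL-5 T cell libraries and 1263 and 1224 CPM in the PBS T cell libraries, against 160 and 165 CPM in the IL-5 microglia libraries and 231 and 249 CPM in the PBS microglia libraries. The 4 T cell libraries averaged 1146 ± 234 CPM and the 4 microglia libraries 201 ± 45.3 CPM (SD, n = 4 each), a ratio of 5.69. After TMM scaling, which corrects for the makeup of the libraries and is the scale of the tests below, the sums were 875 ± 166 CPM in T cells and 261 ± 45.5 CPM in microglia, a ratio of 3.36. On both scales the lowest T cell library was above the highest microglia library. Mean CPM was higher in T cells for 33 members. Most genes leaned this way without TMM scaling: 10581 of 15397 had a fitted log2 fold change above 0 by library size alone. Ccne2, the second E-type cyclin, averaged 1.36 CPM in T cells and 1.49 CPM in microglia. A typical gene tested in the T cell libraries had a mean of 27.7 CPM and a typical member 26.6 CPM, whereas in the microglia libraries a typical gene had 13.7 CPM and a typical member 4.18 CPM (medians over genes).

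**Figure D1:**
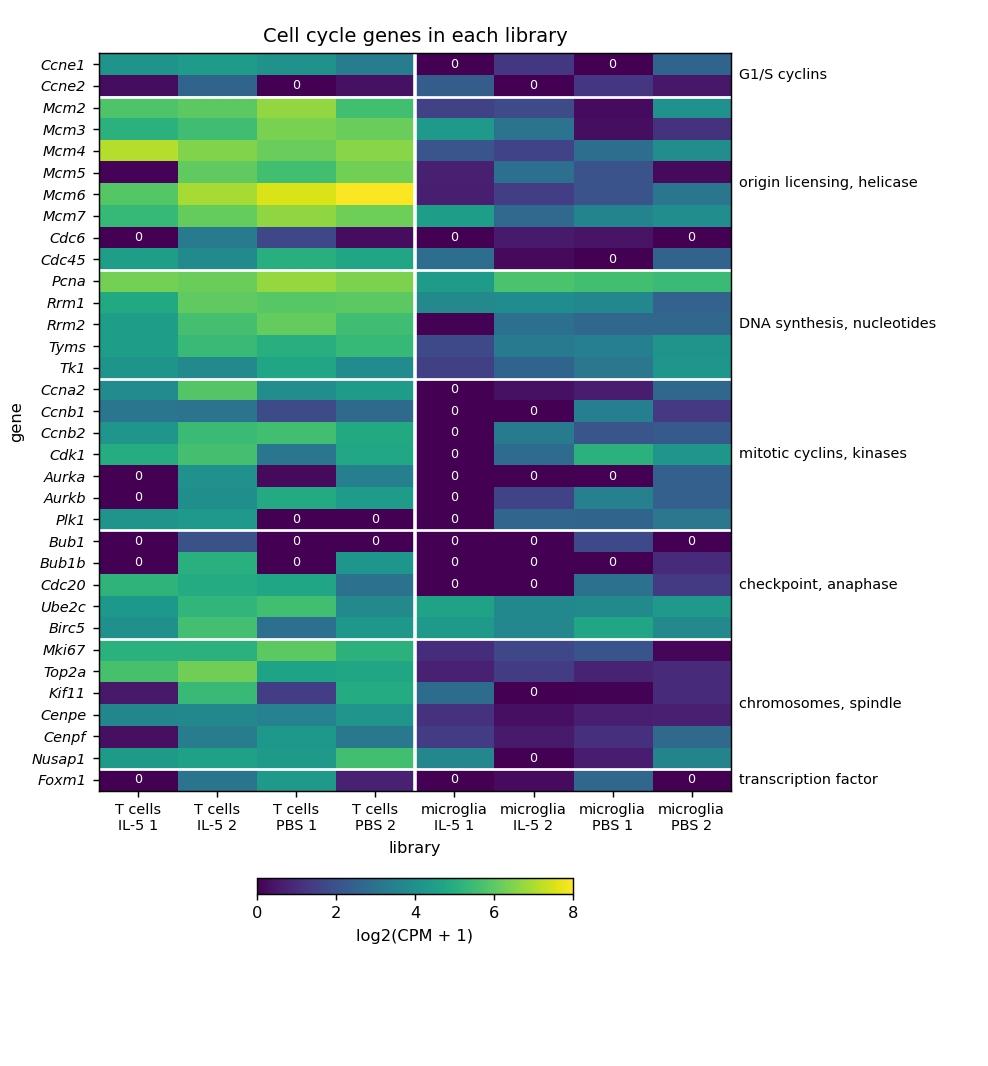
Level of each of the 34 genes (rows, grouped by role) in each of the 8 libraries (columns, replicates 1 and 2 of each group), as log2(CPM + 1) on the colour scale, with 0 printed where no count was recorded. The T cell columns on the left are brighter than the microglia columns in nearly every row, and zeros are most frequent in the IL-5 microglia column of replicate 1, with 13 of 34.

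The levels were uneven between replicates. In microglia 17 members were at 0 in at least 1 library and in T cells 8 were. Among members tested, replicates differed at least 10-fold for 8 of 32 in IL-5 T cells (25%, against 13.7% of all genes tested), 5 of 32 in PBS T cells (15.6% against 14.1%), 11 of 29 in IL-5 microglia (37.9% against 15.6%) and 7 of 29 in PBS microglia (24.1% against 9.21%). For example Mcm5, a helicase subunit, had 2 counts in the IL-5 T cell library of replicate 1 and 1723 in replicate 2, and Bub1b, a kinase-like protein of the spindle checkpoint, had 0 and 877. Bub1b, Aurka and Kif11 were higher in replicate 2 of both T cell groups. Cdc6 and Foxm1 were higher in replicate 2 with IL-5 but in replicate 1 with PBS. Neutrophil progenitor genes summed to 9.91 and 119 CPM in replicates 1 and 2 of IL-5 T cells, and to 0.379 and 123 CPM in those of PBS T cells. Their part in these member values was not tested. IL-5 T cell replicate 1 had 6 members at 0 and the lowest T cell sum; IL-5 microglia replicate 1 had 13 at 0, including all 7 mitotic cyclins and kinases. That microglia library also had 25.5% of its reads outside any annotated feature, against 15.2 to 17.0% in the other 3 microglia libraries, and the fewest genes with a count, 13172; the part of this in its low values was not tested.

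The summed levels by role differed between the cell types by unequal factors. Origin licensing and helicase genes summed to 521 ± 138 CPM in T cells and 40.6 ± 17.5 CPM in microglia, a ratio of 12.8, and genes of chromosomes, kinetochore and spindle to 151 ± 34.1 and 13.3 ± 9.21 CPM, a ratio of 11.4. DNA synthesis and nucleotide genes summed to 237 ± 51.8 CPM in T cells and 73.0 ± 23.8 CPM in microglia, mitotic cyclins and kinases to 125 ± 53.7 and 32.7 ± 27.5 CPM, and checkpoint and anaphase genes to 88.4 ± 42.8 and 37.2 ± 10.4 CPM (SD, n = 4 each). After TMM scaling the ratios of these 5 roles were lower, in the same order 7.32, 6.34, 1.95, 2.37 and 1.37. Licensing and helicase genes were the largest role in each T cell library, at 36.7 to 52.2% of the members' summed CPM, against 10.6 to 33.4% in microglia. Per kilobase of exon, Pcna, the clamp that holds the polymerase on DNA, ranked highest of the 34 in both cell types, at 35.9 CPM per kb in T cells and 16.8 in microglia. Behind it in T cells came Mcm6 (32.9 CPM per kb), Mcm4 (27.4) and Ccnb2 (21.9), and in microglia Ube2c (6.53), Birc5 (5.06) and Mcm7 (2.96).

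**Figure D2:**
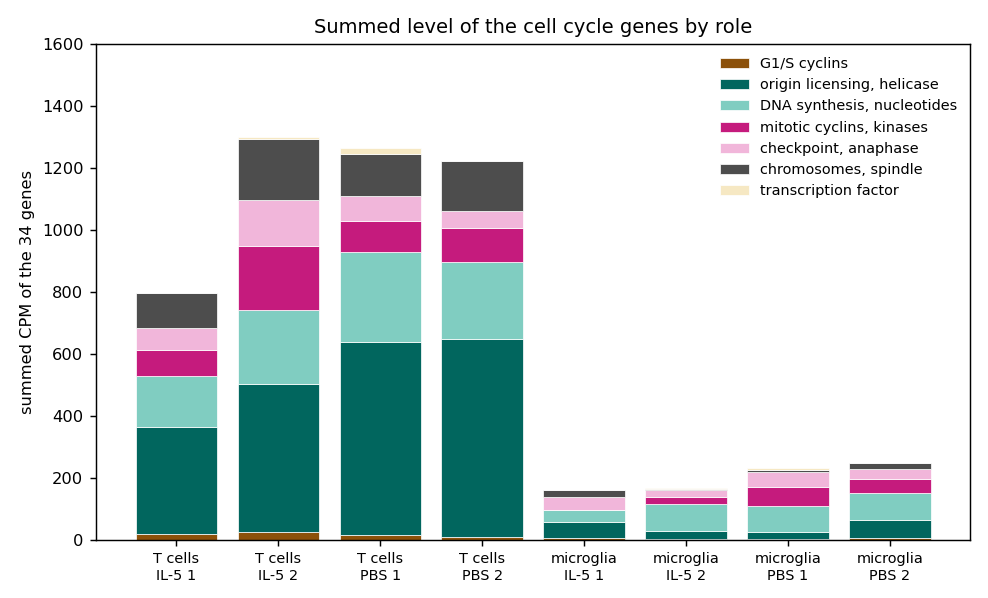
Summed CPM of the 34 genes in each library, stacked by role. T cell bars run between 798 and 1299 CPM and microglia bars between 160 and 249 CPM, and the licensing and helicase block is the tallest block of every T cell bar.

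In the test across both treatments, 7 of the 34 members were higher in T cells and 0 were lower, at an edgeR quasi-likelihood Benjamini-Hochberg adjusted p under 0.05; of all 15397 genes tested, 8.05% were higher and 11.4% lower. Before adjustment, 13 members were higher and 1, Plk1, was lower at p under 0.05 (16.3% and 17.6% of all genes). The mean CPM of Plk1 was nonetheless higher in T cells, at 8.81 against 4.49 CPM in microglia. Its PBS T cell libraries were at 0, while its IL-5 T cell libraries, at 16.7 and 18.5 CPM, were above every microglia library (0 to 7.92 CPM). The member median was a log2 fold change of 2.77, against 0.17 for all genes tested. Above 0 lay 29 members, with 5 below, and 8267 of all 15397 genes lay above 0. On the scale of the test, CPM after TMM scaling, 11 members had every T cell library above every microglia library, where 14% of all genes did, and 0 the reverse, where 15.6% did. DESeq2 called 15 members higher and 1 lower, against 14.2% and 16.8% of all genes, and scaling by library size alone called 11 higher. That scaling moved the median of all genes to 0.91 and turned the split of all called genes to 2790 higher and 868 lower, against 1240 higher and 1753 lower after TMM scaling. The 7 called genes were Mcm6, Mcm4, Mcm3, Top2a, Mki67, Cdc20 and Ccna2, with 178 to 6373 counts each in the T cell libraries.

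**Figure D3:**
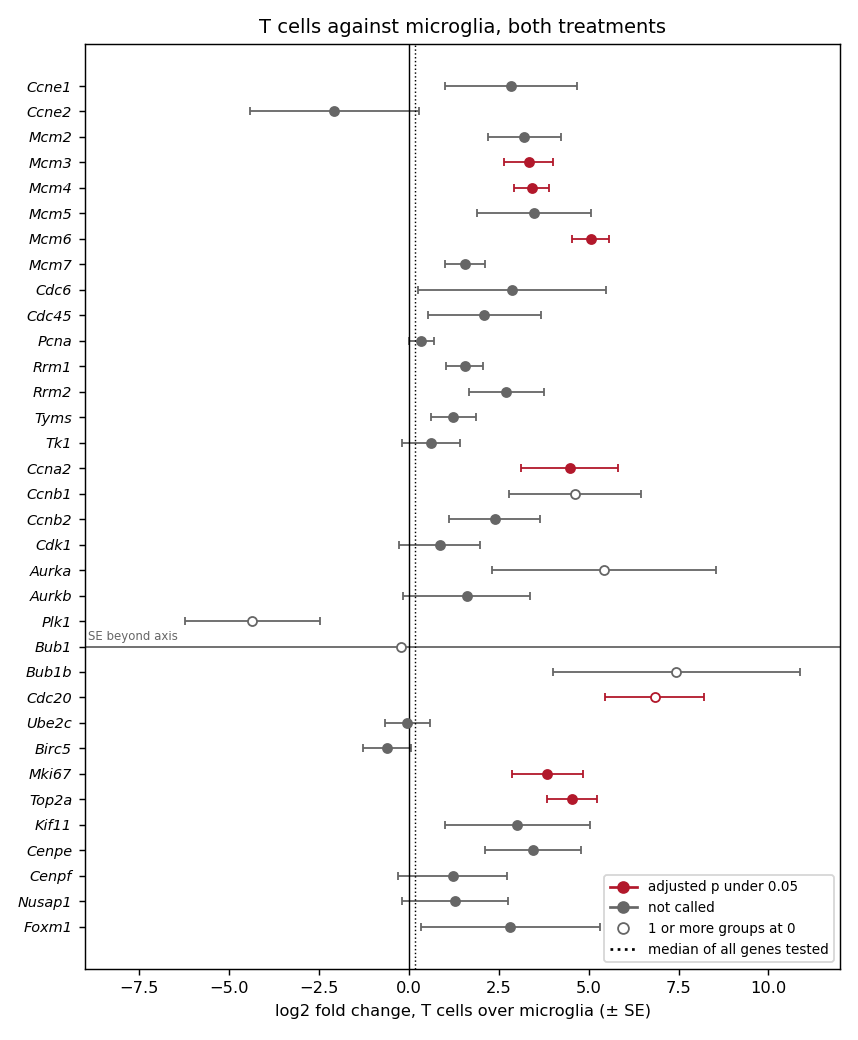
Fitted log2 fold change (± SE) of T cells over microglia for each member across both treatments, red where the adjusted p was under 0.05, open where both libraries of 1 or more groups were at 0, with a dotted line at the median of all genes tested (0.17). Of 34 points 29 lie right of 0 and the 7 red points lie between 3.34 and 6.84; the SE of Bub1 runs beyond the axis.

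Of the 6 helicase subunits, Mcm6, Mcm4 and Mcm3 passed. Mcm6 (chr1:128331590-128359664, GRCm38, minus strand), a subunit of the replicative helicase, had 58.3 and 124 CPM in IL-5 T cells and 185 and 248 CPM in PBS T cells, against 0.595 and 1.73 CPM in IL-5 microglia and 3.16 and 7.73 CPM in PBS microglia. The lowest T cell library was above the highest microglia library, and edgeR gave a log2 fold change of 5.06 ± 0.52 (SE) with an adjusted p of 0.00028. Mcm4 (chr16:15623897-15637400, minus strand) had 138 and 88.5 CPM in IL-5 T cells and 71.1 and 95.5 CPM in PBS T cells, against 3.31 and 2.02 CPM in IL-5 microglia and 6.41 and 14.2 CPM in PBS microglia. Its groups did not overlap either, and the fold was 3.42 ± 0.49 (edgeR adjusted p = 0.0016).

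Mcm3 (chr1:20802968-20820312, minus strand) had 33.9 and 46.2 CPM in IL-5 T cells and 82.2 and 71.8 CPM in PBS T cells, against 19.0 and 7.23 CPM in IL-5 microglia and 0.230 and 1.25 CPM in PBS microglia. All T cell values were above all microglia values in CPM, though not after TMM scaling, and IL-5 microglia were nearest to the T cells; the fold was 3.34 ± 0.68 (edgeR adjusted p = 0.0091). Of the other licensing genes, Mcm2 had 47.1 to 104 CPM in T cells and 0.164 to 15.4 CPM in microglia and just missed the threshold (3.22 ± 1.02, edgeR adjusted p = 0.054). Mcm5, Mcm7, Cdc45 and the loading factor Cdc6 did not pass it, with log2 fold changes between 1.56 and 3.49. Cdc6 was at 0 in 1 T cell library and 2 microglia libraries and never above 9.15 CPM.

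Among the 5 genes of DNA synthesis, edgeR called 0. Rrm1, the large subunit of ribonucleotide reductase, came nearest, with 28.2 to 64.9 CPM in T cells and 4.75 to 13.8 CPM in microglia and no overlap (1.56 ± 0.52, edgeR adjusted p = 0.067). Pcna had 79.2 and 73.4 CPM in IL-5 T cells and 106 and 85.6 CPM in PBS T cells, against 20.4 and 52.4 CPM in IL-5 microglia and 46.3 and 42.5 CPM in PBS microglia. It was thus well expressed in every microglia library, and its fold was 0.36 ± 0.34 after TMM scaling and 1.09 by library size, past the threshold on neither. Rrm2, the small subunit of ribonucleotide reductase, had 21.1 to 67.8 CPM in T cells and 0.0425 to 6.54 CPM in microglia (2.72 ± 1.04, edgeR adjusted p = 0.10). Tyms and Tk1, which make thymidine nucleotides, had 21.1 to 41.1 and 12.5 to 25.6 CPM in T cells, against 2.42 to 16.6 and 1.87 to 17.4 CPM in microglia, with folds of 1.24 ± 0.63 and 0.63 ± 0.81. The G1 to S cyclin Ccne1 had 9.40 to 20.1 CPM in T cells and 0 to 4.93 CPM in microglia, and neither it nor Ccne2 passed.

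Of the proteins of mitotic chromosomes, Top2a and Mki67 passed. Top2a (chr11:98992943-99024189, minus strand), the topoisomerase that disentangles sister chromatids, had 50.1 and 75.2 CPM in IL-5 T cells and 24.1 and 24.8 CPM in PBS T cells, against 0.680 and 1.62 CPM in IL-5 microglia and 0.756 and 0.994 CPM in PBS microglia. The cell types were far apart in every library (4.54 ± 0.69, edgeR adjusted p = 0.0021). Mki67 (chr7:135689784-135716361, minus strand), whose protein Ki-67 coats mitotic chromosomes and marks cycling cells, had 33.3 and 33.95 CPM in IL-5 T cells and 62.1 and 34.3 CPM in PBS T cells, against 1.06 and 2.24 CPM in IL-5 microglia and 3.19 and 0.110 CPM in PBS microglia. Its groups did not overlap (3.86 ± 1.00, edgeR adjusted p = 0.025).

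Cenpe, a kinetochore motor, kept its groups apart as well, at 10.8 to 17.1 CPM in T cells and 0.257 to 1.19 CPM in microglia, but did not pass (edgeR adjusted p = 0.11). The spindle motor Kif11, the centromere protein Cenpf and the spindle protein Nusap1 overlapped after TMM scaling and did not pass, nor did the transcription factor Foxm1, which ran from 0 to 18.7 CPM in T cells and from 0 to 5.52 CPM in microglia.

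Of the mitotic regulators, Cdc20 and Ccna2 passed. Cdc20 (chr4:118432901-118437352, minus strand), which activates the anaphase-promoting complex, had 35.6 and 29.5 CPM in IL-5 T cells and 25.3 and 6.92 CPM in PBS T cells, against 0 and 0 CPM in IL-5 microglia and 6.97 and 1.58 CPM in PBS microglia. The lowest T cell library was just below the highest microglia library in CPM, and the cell types overlapped after TMM scaling too. The edgeR fold was 6.84 ± 1.38 with an adjusted p of 0.011, a fold set partly by the IL-5 microglia at 0. The ratio of mean CPM was 11.4. Ccna2 (chr3:36564865-36572150, minus strand), cyclin A2, had 13.6 and 56.6 CPM in IL-5 T cells and 14.0 and 20.5 CPM in PBS T cells, against 0 and 0.294 CPM in IL-5 microglia and 0.526 and 5.56 CPM in PBS microglia. Its groups did not overlap, and it passed narrowly (4.47 ± 1.34, edgeR adjusted p = 0.045).

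**Figure D4:**
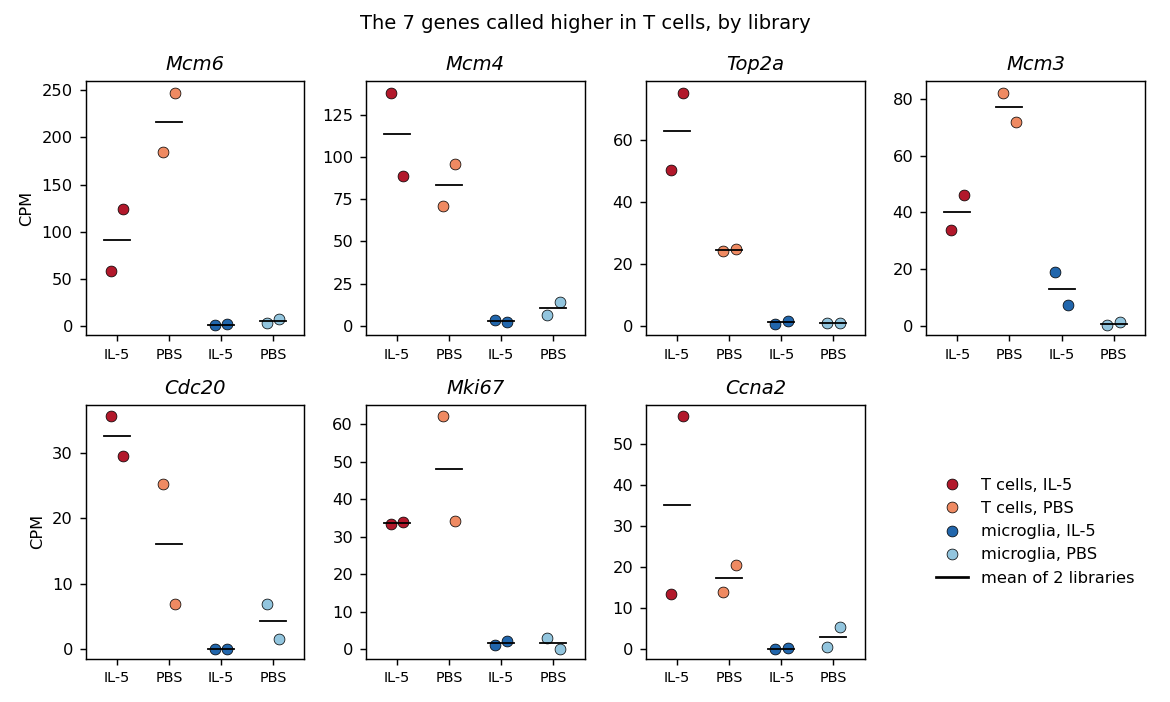
CPM of the 7 called genes in each library, T cells left of microglia and IL-5 left of PBS within each; points are libraries and bars are means of 2. Each vertical axis has its own range, and every T cell point lies above every microglia point except for Cdc20. For Cdc20 the lowest T cell library (6.92 CPM) lies just below the highest microglia library (6.97 CPM).

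The other mitotic regulators did not pass in edgeR, and their levels were unequally apart. Cyclin B2, Ccnb2, had 16.9 to 46.9 CPM in T cells and 0 to 8.67 CPM in microglia without overlap, and the Aurora B kinase, Aurkb, had 0 to 29.0 CPM in T cells and 0 to 10.2 CPM in microglia. The Aurora A kinase, Aurka, was at 0, 15.4, 0.151 and 9.95 CPM in the T cell libraries and above 0 in 1 microglia library, at 4.42 CPM. The checkpoint kinases Bub1 and Bub1b were found in 1 and 2 T cell libraries, at 2.94 CPM and at 33.0 and 17.3 CPM, and in 1 microglia library each, at 2.43 and 0.994 CPM.

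Ube2c, Birc5 and Cdk1 were nearer between the cell types. Ube2c, the conjugating enzyme of the anaphase-promoting complex, had 12.7 to 47.0 CPM in T cells and 12.4 to 23.5 CPM in microglia, with a fold of −0.04 ± 0.62. Birc5, survivin, had 6.55 to 47.7 CPM in T cells and 11.97 to 25.6 CPM in microglia, with −0.59 ± 0.67; scaling by library size put both folds above 0. Cdk1 had 7.91 to 48.7 CPM in T cells and 0 to 34.3 CPM in microglia, with 0.86 ± 1.12. The cell types overlapped for all 3. Of the Ube2c exons, 592 bases (22.8%) lie opposite Tnnc2, and the strand setting of the counting is not given in the sources used here.

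Of the 7 called genes, Mcm6, Mcm4 and Top2a stayed called in all 16 alternative fits tried, Mcm3 in 15, Cdc20 in 14, Mki67 in 12 and Ccna2 in 8. The call of Mki67 was lost without IL-5 microglia replicate 1 (edgeR adjusted p = 0.074), IL-5 microglia replicate 2 (0.0503) or PBS T cell replicate 1 (0.070). Ccna2 lost its call without either PBS microglia library (adjusted p = 0.12 without replicate 1 and 0.057 without replicate 2), either PBS T cell library (0.058 and 0.074), IL-5 microglia replicate 1 (0.077) or IL-5 T cell replicate 2 (0.16). An additive model of cell type and treatment, added after the zeros were seen, dropped Mcm3, Cdc20 and Ccna2 and called Mcm2, 5 genes in all. Of all 15397 genes, that model called 1153 higher and 1649 lower. Ccna2 overlaps Exosc9 on the opposite strand over 12.5% of its exons.

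Within each treatment fewer genes passed. In IL-5 mice, 4 of 34 members were higher in T cells and 0 lower (2.49% and 5.73% of all genes): Mcm6, Mcm4, Top2a and Cdc20. In PBS mice, 3 of 34 were higher and 0 lower (2.57% and 4.6% of all genes): Mcm6, Mcm3 and Top2a. Mcm6 was 5.51 ± 0.75 log2 units higher in T cells of IL-5 mice and 4.62 ± 0.71 in PBS mice, and Top2a 4.98 ± 0.99 and 4.10 ± 0.95. Cdc20 in IL-5 mice was at least 274-fold higher in T cells in CPM and at least 151-fold after TMM scaling, measured against a floor of 3 counts in each microglia library. The member median in IL-5 mice was 2.58. It was 3.19 without IL-5 T cell replicate 1, 4.26 without IL-5 microglia replicate 2 and 0.963 without IL-5 T cell replicate 2. In PBS mice the member median was 1.80, and it lay between 1.67 and 2.65 without single libraries. DESeq2 called 9 higher and 0 lower in IL-5 mice (7.49% and 11.2% of all genes) and 7 higher and 1 lower in PBS mice (7.96% and 10.5%). Before adjustment, 8 were higher and 0 lower at p under 0.05 in IL-5 mice (9.83% and 12.3% of all genes), and 7 higher and 1 lower in PBS mice (10% and 12.4%). The libraries did not overlap after TMM scaling for 17 members higher and 0 lower in IL-5 mice, against 28.9% and 24.3% of all genes, and for 20 higher and 4 lower (Ccne2, Cdk1, Plk1 and Birc5) in PBS mice, against 29.1% and 29.9%.

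The wider cell cycle pathway was described by lists chosen with earlier results of these data known, beside the 8.05% of all genes called higher and 11.4% called lower. Of 34 other replication genes tested, 3 (8.82%) were higher in T cells and 0 lower, a share near that of all genes, with a median log2 fold change of 1.07. Cdc7, the kinase that fires origins, averaged 28.5 CPM in T cells and 1.69 CPM in microglia; Pola1 and Prim1, of the polymerase that starts DNA strands, averaged 33.9 and 37.1 CPM in T cells and 0.605 and 1.39 CPM in microglia (edgeR adjusted p = 0.025, 0.029 and 0.032). Each of these 3 lost its call when 1 or another single library was left out, Cdc7 in 6 of 8 such fits.

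Of 45 other mitosis genes tested, 6 (13.3%) were higher in T cells and 2 (4.44%) lower, against 8.05% and 11.4% of all genes, with a median of 2.89. Smc4, a condensin subunit, had 114 and 114 CPM in IL-5 T cells and 185 and 144 CPM in PBS T cells, against 3.74 and 6.13 CPM in IL-5 microglia and 5.78 and 14.9 CPM in PBS microglia. The groups were far apart (3.51 ± 0.41, edgeR adjusted p = 0.00062), and the call held without any single library. Aspm, a spindle pole protein, was at 0 in all 4 microglia libraries and at 3.82 to 15.9 CPM in T cells, at least 105-fold higher against the floor in CPM and 61.0-fold after TMM scaling (edgeR adjusted p = 0.017), and Anln, Ndc80, Incenp and Smc2 also passed. Without single libraries, Aspm kept its call in 6 of 8 fits, Anln in 5, Incenp and Smc2 in 2 each and Ndc80 in 1.

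The 2 lower genes were Espl1 and Pttg1. Espl1, separase, the protease that cuts cohesin at anaphase, had 0 and 0.226 CPM in IL-5 T cells and 0.0757 and 0 CPM in PBS T cells, against 14.4 and 12.7 CPM in IL-5 microglia and 19.5 and 4.23 CPM in PBS microglia. It ran opposite to most of the list in every library (−8.26 ± 1.77, edgeR adjusted p = 0.011). Pttg1, securin, which inhibits separase, averaged 189 CPM in T cells and 231 CPM in microglia and passed after TMM scaling (−1.09 ± 0.31, edgeR adjusted p = 0.038) but not by library size alone (−0.28, edgeR adjusted p = 0.48); its call was also lost in 6 of 8 fits without a single library.

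The 3 smaller lists held few calls, read beside 8.05% of all genes higher and 11.4% lower. Of 7 G1 cyclins, their kinases and Cdc25a, 1 was higher in T cells and 0 lower. Ccnd2, cyclin D2, had 620 and 573 CPM in IL-5 T cells and 740 and 828 CPM in PBS T cells, against 26.7 and 44.6 CPM in IL-5 microglia and 36.9 and 24.4 CPM in PBS microglia. The separation was wide (3.62 ± 0.26, edgeR adjusted p = 5.7e-05). Of 13 brakes of the cycle, 1 (7.69%) was higher and 2 (15.4%) lower: Rbl2, the pocket protein p130, was higher in T cells (121 against 8.61 CPM on average) and Btg2 and Cdkn1a, an antiproliferative factor and the inhibitor p21, were lower (674 against 1727 CPM and 51.7 against 104 CPM; edgeR adjusted p = 0.0015, 0.00068 and 0.0073). Of 16 E2F, DREAM and MYB factors, 2 (12.5%) were higher and 0 lower: Tfdp1, the partner of E2F, and Myc were higher in T cells, at 51.5 against 5.58 CPM and 95.2 against 21.5 CPM (edgeR adjusted p = 0.019 and 0.026), each call held in 4 of 8 fits without a single library.

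Within T cells, no member passed the test of IL-5 against PBS. Of 32 members tested, 0 were called higher and 0 lower by edgeR, as were 0% and 0% of the 13897 genes tested; before adjustment 2 were higher and 1 lower at p under 0.05 (2.55% and 1.76% of all genes), and DESeq2 called 2 higher and 1 lower, where it called 2.9% and 1.83% of all genes. The member median was −0.22, against −0.01 for all genes, and 13 members lay above 0. The sign of the member median was not the same in every fit without a single library. It was 0.17 without IL-5 replicate 1, 0.09 without either PBS library and −0.69 without IL-5 replicate 2. The fits with a median above 0 tested 34 members, against 32 with all libraries and without IL-5 replicate 2. The IL-5 and PBS libraries did not overlap for 6 members higher with IL-5 and 6 lower, against 18.1% and 17.3% of all genes tested. The 3 genes that DESeq2 called were Plk1, Top2a and Mcm6.

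Plk1, the Polo kinase of mitosis, had 16.7 and 18.5 CPM (500 and 491 counts) in IL-5 T cells, against 0 and 0 counts in PBS T cells. The groups were apart, and IL-5 T cells were at least 153-fold higher against the floor of 3 counts, but edgeR gave an adjusted p of 1.00 (unadjusted p = 0.0059); 3 of the 4 microglia libraries held Plk1, at 4.93 to 7.92 CPM. Top2a had 50.1 and 75.2 CPM in IL-5 T cells, against 24.1 and 24.8 CPM in PBS T cells, a log2 difference of 1.40 ± 0.50 (edgeR adjusted p = 1.00, unadjusted p = 0.030). Mcm6 lay the other way, at 58.3 and 124 CPM in IL-5 T cells, against 185 and 248 CPM in PBS T cells (−1.20 ± 0.42, edgeR adjusted p = 1.00, unadjusted p = 0.029).

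By role, the T cell values lay on both sides of 0. Of the 8 licensing and helicase genes, 6 were below 0 with a median of −0.66, and all 5 DNA synthesis genes were below 0 with a median of −0.35. Of the 7 mitotic cyclins and kinases, 5 were above 0 with a median of 0.90, and of 4 checkpoint and anaphase genes tested 3 were above 0 with a median of 1.02. Of the 6 genes of chromosomes, kinetochore and spindle, 4 were below 0 with a median of −0.32, and Foxm1 was at −1.35 ± 2.96. In CPM, the 19 genes of G2 and mitosis made up 33.7 and 42.8% of the members' sum in IL-5 T cells, against 26.4 and 26.7% in PBS T cells. This share was formed after these values were seen and is given without a test. The summed level of these genes did not separate the groups, at 269 and 557 CPM in IL-5 T cells, against 334 and 327 CPM in PBS T cells. The G1 and S members summed to 529 and 743 CPM in IL-5 T cells, against 930 and 896 CPM in PBS T cells. Mki67 had 33.3 and 33.95 CPM in IL-5 T cells, against 62.1 and 34.3 CPM in PBS T cells, and so showed no separation (−0.47 ± 0.54).

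Marker levels also differed between the T cell libraries, with 0 of 5 choroid plexus genes and 0 of 9 T cell markers passing in edgeR. Choroid plexus genes summed to 91494 and 93536 CPM in IL-5 T cells, against 66009 and 46117 CPM in PBS T cells, and the 9 T cell markers to 3888 and 4813 CPM in IL-5 T cells, against 6163 and 6870 CPM in PBS T cells. The part of these levels in the values of the members was not tested. No gene of the other replication, mitosis, G1 cyclin, brake or E2F lists passed in T cells.

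Within microglia, no member passed the test of IL-5 against PBS either. Of 29 members tested, 0 were called higher and 0 lower by edgeR, as were 0% and 0% of the 13764 genes tested; before adjustment 1 was higher and 2 were lower at p under 0.05 (1.79% and 2.7% of all genes), and DESeq2 called 0 members and 0.131% and 0.356% of all genes. The median was −0.20, against −0.02 for all genes, and 13 members lay above 0. The median lay between −1.65 and −0.37 without single libraries, lowest without IL-5 replicate 2 (−1.65) and IL-5 replicate 1 (−1.48). Those fits tested 31 to 34 members, against 29 with all libraries, so the medians are not over the same genes. With all libraries and no low count filter, the median over 34 members was −0.96. What part the added members had in the shift was not tested. The IL-5 and PBS libraries did not overlap for 2 members higher with IL-5 and 9 lower, against 17.4% and 21.1% of all genes tested. The members' sum was 160 and 165 CPM in IL-5 microglia, against 231 and 249 CPM in PBS microglia, and after TMM scaling within microglia 192 and 153, against 220 and 235.

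Mcm3 had 19.0 and 7.23 CPM (448 and 197 counts) in IL-5 microglia, against 0.230 and 1.25 CPM (7 and 34 counts) in PBS microglia. Both IL-5 libraries were above both PBS libraries, with a log2 difference of 4.39 ± 1.48 (edgeR adjusted p = 0.96, unadjusted p = 0.023). Ccnb1, cyclin B1, had 0 and 0 counts in IL-5 microglia, against 300 and 41 counts (9.86 and 1.51 CPM) in PBS microglia, at least 47.9-fold lower with IL-5 against the floor in CPM and 42.4-fold after TMM scaling. Cdc20 likewise had 0 and 0 counts in IL-5 microglia, against 212 and 43 counts in PBS microglia, at least 36.0-fold lower in CPM and 31.8-fold after TMM scaling; the edgeR adjusted p was 0.96 for both genes (unadjusted p = 0.022 and 0.027). The 5 pseudogenes of Ccnb1 match it over long stretches, and how reads shared with them were counted is not given in the sources used here.

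The other mitotic cyclins and kinases in microglia were uneven between the IL-5 libraries. Cdk1 had 0 and 5.99 CPM in IL-5 microglia, against 34.3 and 17.8 CPM in PBS microglia, and did not pass (−3.15 ± 1.90, edgeR adjusted p = 0.97); without IL-5 microglia replicate 2 it did (−12.37, adjusted p = 0.014), in a fit that called 3.57% of all genes higher and 4.85% lower, and without replicate 1, the library with the most reads outside features, it was −2.15 (adjusted p = 0.85). Ccna2, Ccnb2, Aurkb and Plk1 were also at 0 in IL-5 microglia replicate 1 and not in replicate 2. The 6 members of this role tested had a median of −3.01 with 1 above 0. The 7 genes of the role summed to 0 and 22.1 CPM in IL-5 microglia, against 63.1 and 45.5 CPM in PBS microglia. The progenitor genes of neutrophils summed to 2189 and 3854 CPM in IL-5 microglia, against 4314 and 5181 CPM in PBS microglia, and choroid plexus genes to 56361 and 59978 CPM in IL-5 microglia, against 40439 and 33931 CPM in PBS microglia; their part in the members' values was not tested. No gene of the other pathway lists passed in microglia.

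**Figure D5:**
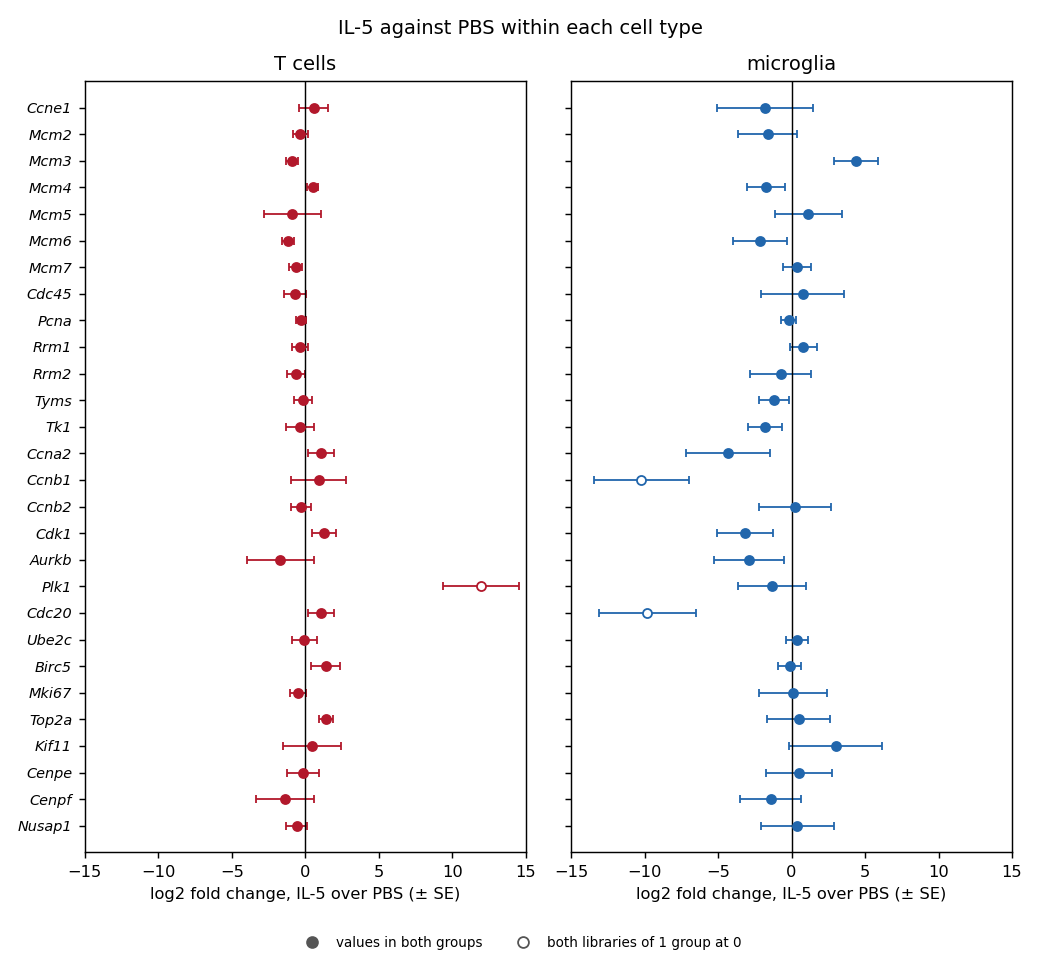
Fitted log2 fold change (± SE) of IL-5 over PBS in T cells (left) and microglia (right) for the 28 members tested in both, open where both libraries of 1 group were at 0. T cell intervals are narrower than those of microglia for most genes, and no point in either panel passed the test.

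The IL-5 difference in T cells was set against that in microglia in 1 model of all 8 libraries. No member's difference of differences passed (0 higher and 0 lower of 34 by edgeR, as 0% and 0% of 15397 genes), while before adjustment 4 were higher and 1 lower at p under 0.05 (3.22% and 1.96% of all genes) and DESeq2 called 4 higher and 1 lower, against 0.857% and 0.357% of all genes. Ccnb1, Cdk1 and Cdc20 were higher with IL-5 in both T cell libraries and lower in both microglia libraries, a pattern held by 3.03% of all genes, and Mcm3 ran the opposite way, as did 2.72%. Mcm3 gave a difference of −5.33 ± 1.33 on the log2 scale (edgeR adjusted p = 0.81, unadjusted p = 0.0029) and Cdk1 a difference of 4.35 ± 2.32 (adjusted p = 0.90, unadjusted p = 0.093); without IL-5 microglia replicate 2 the value for Cdk1 passed (14.18, edgeR adjusted p = 0.035), 1 of 34 members in a fit that called 1.07% of all genes higher and 0.326% lower.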

How the data were processed

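RNA-seq reads of 75 bases, single-end, were measured in 8 libraries of sorted brain T cells and microglia. The authors deposited 1 table of raw counts per gene; per the submitters' processing notes, the tools named were STAR 2.5.3a, DESeq2 1.1, Cufflinks 2.0, FastQC 1.0.0 and bcl2fastq 2.20.0.422, with the builds mm10 and GRCm38, with the counter and its strand setting not given in the sources used here. Of 24953 table entries, 2 summary entries (15.2 to 25.5% of reads with no feature) and 27 genes with 53 cells that could not be read as counts were left out. Members and lists were chosen with earlier results of these data known.

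CPM was computed over gene counts, with a floor of 3 counts per library (0.0986 to 0.127 CPM). The floor covers counting error only; SD and SE describe the spread between libraries. Genes were kept by filterByExpr (minimum count 10) and tested in edgeR 4.0.16 (R 4.3.3) with TMM scaling and robust quasi-likelihood fits, p-values Benjamini-Hochberg adjusted over all genes. T cells were compared with microglia in 1 fit of 4 groups, and IL-5 with PBS in a fit per cell type. SE is the log2 fold change over the root of F. Alternatives were DESeq2 1.42.0, RLE or library size scaling, other filters, a replicate block, all libraries in 1 fit, each library left out and, added after seeing the data, an additive model and a fit without IL-5 replicate 1 of both cell types. The code was tested on simulated data.

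All 34 members are named; from each other list and comparison the rule took the genes past the threshold, at most the 6 with the smallest p, or, where none passed, at most 3 of the highest mean CPM. Smc2 and Pttg1 lie outside it and were named after their values were seen. Same-numbered libraries did not deviate together (correlations of −0.004 to 0.019 over 15397 genes), so the fits were not paired. Exons are those of GENCODE M21 on GRCm38; 97.9% of symbols matched once. Of the members, 8 overlap a protein-coding gene on the opposite strand (Ccne2, Mcm7, Cdc45, Tk1, Ccna2, Cdc20, Ube2c, Nusap1) and 8 have a near-identical stretch elsewhere (Ccnb1, Cdc20, Cdc6, Mcm7, Mki67, Pcna, Rrm2, Tyms; 95% identity over 200 bases, BLAST 2.17.0), so their counts are less certain.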

Additional observations from a re-analysis of the deposited data

Results flagged for a closer look

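In 4 members the IL-5 and PBS libraries separated in opposite directions in the 2 cell types. Ccnb1 had 7.90 and 7.34 CPM in IL-5 T cells, against 2.57 and 5.87 CPM in PBS T cells, and 0 and 0 CPM in IL-5 microglia, against 9.86 and 1.51 CPM in PBS microglia. The fitted difference between these responses, T cells minus microglia, was 11.51 on the log2 scale, and for Cdc20, with the same zeros, 11.27; both depend on the prior count and are no bound. Cdk1 had 29.7 and 48.7 CPM in IL-5 T cells, against 7.91 and 26.0 CPM in PBS T cells, and 0 and 5.99 CPM in IL-5 microglia, against 34.3 and 17.8 CPM in PBS microglia, a difference of 4.35. Mcm3 ran the other way, with a difference of −5.33. The test of the difference itself, edgeR over all genes, passed for none of the 4 (adjusted p = 0.90 for Ccnb1 and Cdk1, 0.81 for Cdc20 and Mcm3); DESeq2 called Ccnb1, Cdc20 and Mcm3 and not Cdk1.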

How the results depend on the processing

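In fits without single libraries the sign of the member median for IL-5 over PBS in T cells turned (−0.69 to 0.17). The medians above 0 were over 34 members, against 32 with all libraries. The sign also turned for the median of the difference of the responses (−0.62 to 1.72, below 0 without IL-5 T cell replicate 2). It turned for Plk1 (T cells over microglia, −4.93 to 0.37) and for Mki67 (IL-5 over PBS in T cells, −0.85 to 0.032). Across both treatments DESeq2 called 15 members higher and 1 lower in T cells (14.2% and 16.8% of all genes). Library size scaling called 11 members higher, beside 2790 of all 15397 genes. Without single libraries the member median lay between 1.23 and 3.14, lowest without IL-5 T cell replicate 2. In IL-5 mice DESeq2 called 9 higher (7.49% of all genes), and 2 to 8 were higher without single libraries. The 2 were without IL-5 T cell replicate 1, where 0.61% of all genes were higher. The 8 were without IL-5 microglia replicate 2, where 6.2% of all genes were. Without replicate 1 of both IL-5 groups 1 member was higher, beside 0.854% of all genes. In PBS mice DESeq2 called 7 higher and 1 lower (7.96% and 10.5% of all genes). No low count filter gave 5 and 1, beside 641 and 1081 of 18196 genes. The member median in PBS mice lay between 1.67 and 2.65 without single libraries. For IL-5 against PBS, DESeq2 called 2 members higher and 1 lower in T cells (2.9% and 1.83% of all genes). In microglia the member median lay between −1.65 and −0.37 without single libraries, over 31 to 34 members, against 29 with all libraries. For the difference of the responses DESeq2 called 4 members higher and 1 lower (0.857% and 0.357% of all genes). The cause of these shifts was not tested. Leaving out a library leaves a group with 1, assumed to vary like the others.

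With the replicate number as a block, 7 members were called higher and 0 lower across both treatments, beside 1090 and 1571 of 15397 genes. In IL-5 mice 4 were higher and 0 lower, beside 293 and 682 genes. In PBS mice 2 were higher and 0 lower, beside 316 and 617 genes. Same-numbered libraries did not deviate together over all genes, which cannot show whether the numbers mark shared mice. The block moved the member median for IL-5 over PBS in microglia to −1.37, against −0.20 without it. That median was −0.96 with no low count filter and −0.95 in 1 fit of all libraries. Both of these were over 34 members, where −1.37 and −0.20 were over 29. Of the 34 members, 24 to 33 had at least 100 counts in a T cell library and 9 to 21 in a microglia library; what part depth has in the lack of calls was not tested.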

Other observations

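Some cell cycle genes outside the 34, singled out after their values were seen, stood apart with IL-5 without passing the test over all genes. Cdkn2b, an inhibitor of the cyclin D kinases, had 14.1 and 3.35 CPM in IL-5 T cells, against 0 and 0 CPM in PBS T cells, and 7.05 and 4.41 CPM in IL-5 microglia, against 0 and 0 CPM in PBS microglia. It was thus found in all 4 IL-5 libraries and in no PBS library, at least 75.7-fold higher in T cells and 54.8-fold higher in microglia against the floor of 3 counts (edgeR adjusted p = 1.00 and 0.96, unadjusted p = 0.027 and 0.012). How many of all genes share this pattern was not counted. Cdkn2a, of the same list of brakes, ran the other way in T cells. It had 0 and 0 CPM with IL-5, against 4.24 and 2.14 CPM with PBS, at least 29.9-fold lower, and was at 0 in every microglia library. Ect2, which sets up the cleavage furrow, had 20.8 and 17.1 CPM in IL-5 T cells, against 0.303 and 0.0389 CPM in PBS T cells (edgeR adjusted p = 1.00, unadjusted p = 0.015). In microglia, the spindle factor Tpx2 had 0 and 0 CPM with IL-5, against 14.8 and 1.07 CPM with PBS, and Cdca8, of the Aurora B complex, 0 and 0 CPM with IL-5, against 6.77 and 4.49 CPM with PBS (edgeR adjusted p = 0.96 for both).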
